A study of Mus musculus with 6 samples.

Results

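Serpins are a family of proteins that share one fold, most of which inhibit proteases. The genes described here are those whose symbol begins with Serpin in the array's platform annotation. There were 30 such genes with a probe set of their own, out of 12393 genes measured. They were covered by 39 probe sets that name 1 gene each, and 3 more Serpin probe sets name several genes and are described apart; they alone name 6 further Serpin genes. Each gene was represented by the probe set with the highest mean over the 6 arrays. The arrays hold total liver RNA from 6 mice of the C57 background, 1 month old, all of them labelled Ppara KO, the controls included. In 3 mice the liver was injected with an adenoviral vector to overexpress TFEB, which as a transcription factor switches on genes of lysosomes, and 3 mice were not injected. The labels give no sex, no time after injection and no promoter of the vector. They describe no group injected with another vector, so TFEB and the injection itself cannot be told apart. The mice are called N1, N2 and N3 (not injected) and T1, T2 and T3 (TFEB-injected) after their replicate numbers. Each array is 1 mouse, and precision is limited by their number.

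An inhibitory serpin exposes a flexible loop that a protease cuts as if it were a substrate. The serpin then changes shape and traps the protease in a covalent complex. Hepatocytes secrete many serpins into blood, where they restrain coagulation, fibrinolysis, complement and the elastase of neutrophils. Some members have given up inhibition and carry hormones or act as chaperones. Clade letters group members by sequence: clade A holds antitrypsin-like secreted proteins, whereas clade B proteins lack a classical secretion signal and mostly act inside cells, where they guard against leaked granule and lysosomal proteases.

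Levels are deposited log2 values, and every change is the log2 level in TFEB-injected minus not-injected livers, with its SE from limma. A gene is said to have risen or fallen where its Benjamini-Hochberg adjusted p over all 12393 genes was under 0.05. The arrays of each group resembled one another closely, with correlations across genes of 0.998 to 0.999 among not-injected and 0.995 to 0.998 among injected livers. They lay between 0.989 and 0.993 across groups. The Tfeb probe set lay between 7.51 and 7.63 in not-injected and between 7.46 and 7.69 in injected livers (change 0.04 ± 0.07; limma adjusted p = 0.777). Ppara lay between 8.87 and 9.01 and between 9.04 and 9.12 (change 0.13 ± 0.05; adjusted p = 0.149). The labels do not say which species' TFEB the vector carries or which part of Ppara is missing, so these probe sets check neither label. Hepatocyte markers were high in every array, with a mean level of 14.46 to 14.47 over 7 markers in not-injected livers and 14.40 to 14.45 in injected livers, and 0 of the 7 passed in limma (1, Cps1, at an unadjusted p under 0.05).

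Promoter sequences are shown first for the genes that carry the main contrasts. Serpinb8 rose most and Serpina12 fell most, Serpinb9 is another clade B gene that rose, Serpinf2 is another fall that passed with any 1 array left out, and Serpina1b and Serpina1c are near copies among the brightest genes of the array. Each is the 250 bases before the RefSeq start site on the gene's own strand, in build GRCm38.p6. Capitals mark E-boxes of the form CANNTG, the general class of site to which TFEB's family binds, and GTTAAT, part of the site of the hepatocyte factor HNF1; both strands were searched, and CACGTG, the E-box core that TFEB prefers, is one case of CANNTG.
Serpinb8 (chr1:107589756-107590005, plus strand): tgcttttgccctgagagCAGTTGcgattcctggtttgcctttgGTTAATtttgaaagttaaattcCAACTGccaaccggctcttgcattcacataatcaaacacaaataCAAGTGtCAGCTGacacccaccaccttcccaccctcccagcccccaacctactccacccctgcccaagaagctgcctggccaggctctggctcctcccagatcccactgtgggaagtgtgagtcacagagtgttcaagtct
Serpinb9 (chr13:33004291-33004540, plus strand): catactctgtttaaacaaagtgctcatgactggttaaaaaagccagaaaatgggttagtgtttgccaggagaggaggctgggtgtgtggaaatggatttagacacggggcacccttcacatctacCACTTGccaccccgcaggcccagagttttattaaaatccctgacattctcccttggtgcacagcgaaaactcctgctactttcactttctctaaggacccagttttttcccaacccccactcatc
Serpina12 (chr12:104044444-104044693, minus strand): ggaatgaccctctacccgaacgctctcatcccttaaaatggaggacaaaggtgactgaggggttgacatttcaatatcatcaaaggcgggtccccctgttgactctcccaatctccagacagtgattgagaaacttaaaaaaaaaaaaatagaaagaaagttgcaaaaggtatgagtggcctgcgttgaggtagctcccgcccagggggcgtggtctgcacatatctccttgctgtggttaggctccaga
Serpinf2 (chr11:75439502-75439751, minus strand): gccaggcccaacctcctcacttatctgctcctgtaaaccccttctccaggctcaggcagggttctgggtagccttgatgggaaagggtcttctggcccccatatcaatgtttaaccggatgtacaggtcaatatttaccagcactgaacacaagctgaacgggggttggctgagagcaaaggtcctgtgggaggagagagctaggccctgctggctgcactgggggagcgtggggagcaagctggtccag
Serpina1b (chr12:103738190-103738439, minus strand): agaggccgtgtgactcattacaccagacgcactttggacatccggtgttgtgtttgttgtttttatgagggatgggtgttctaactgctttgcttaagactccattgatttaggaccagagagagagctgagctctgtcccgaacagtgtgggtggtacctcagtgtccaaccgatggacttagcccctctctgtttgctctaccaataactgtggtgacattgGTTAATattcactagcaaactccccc
Serpina1c (chr12:103904951-103905200, minus strand): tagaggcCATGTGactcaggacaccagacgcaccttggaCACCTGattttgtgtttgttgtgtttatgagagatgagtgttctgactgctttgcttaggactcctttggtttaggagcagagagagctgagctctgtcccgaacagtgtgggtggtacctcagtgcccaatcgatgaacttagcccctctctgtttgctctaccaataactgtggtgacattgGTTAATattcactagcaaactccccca

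RefSeq windows were found for 26 of the 30 genes, among them all 4 that rose and 5 of the 6 that fell. CACGTG was in 0 of their 29 windows, against 6.02% of the 32851 promoter windows of all genes. CANNTG was in 15 of the 29 windows of these 26 genes (51.7%), against 66.2% of all windows. Among genes that rose, the Serpinb8 window holds 4 CANNTG matches, the Serpinb9 window 1 and the Serpinb6b window 0. Serpinb6a has a window with 2 and another with 0. Among genes that fell, the Serpinf1 window holds 4, and those of Serpina12, Serpinf2, Serpina5 and Serpind1 hold 0. GTTAAT was in 4 of the 29 windows (13.8%), those of Serpina1b, Serpina1c, Serpinb8 and Serpini2, against 6.43% of all windows. In Serpina1b it begins 26 bases before the start site and in Serpina1c 27 bases before it. The windows of these 2 paralogs were identical at 229 of 252 aligned columns (90.9%), and the 2 CANNTG matches of Serpina1c have no counterpart in Serpina1b. A match is only a stretch of letters, and its absence refers only to this window.

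Of the 30 Serpin genes, 4 rose and 6 fell. Over all genes, 9.99% rose, 7.92% fell and 17.9% passed in either direction. All 4 that rose, Serpinb8, Serpinb9, Serpinb6b and Serpinb6a, belong to clade B, and 0 of the 14 clade B genes fell (1, Serpinb11, was lower at an unadjusted limma p under 0.05). The 6 that fell, Serpina12, Serpina5, Serpina6, Serpind1, Serpinf1 and Serpinf2, are secreted proteins of clades A, D and F, and 0 of the 16 genes outside clade B rose, also 0 at an unadjusted p under 0.05. The median change was -0.05 over the 30 genes and -0.01 over all genes, and 9 of the 30 were above 0, beside 45.5% of all genes. The injected and not-injected arrays did not overlap for 4 genes that were higher and 12 that were lower; over all genes these shares were 18.2% and 18.9%, or 37.1% in either direction. Without single arrays, the count of rises was 1 without N1, N2, N3 or T2, and the count of falls was 2 without N2 and 3 without N3. Serpinb8, Serpina12 and Serpinf2 passed with each of the 6 arrays left out.

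**Figure D1:**
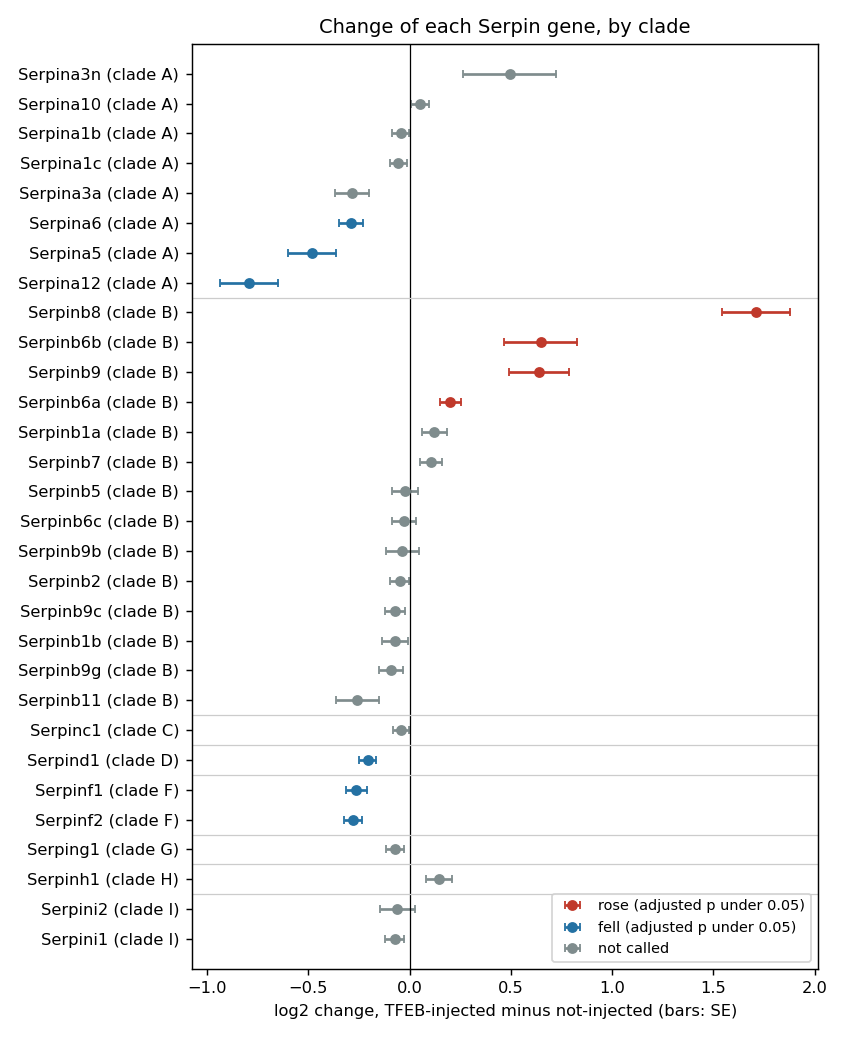
Log2 change of each of the 30 Serpin genes, TFEB-injected minus not-injected livers (x axis; bars, SE), grouped by clade (y axis), with 3 mice in each group. The 4 genes that rose are all of clade B, led by Serpinb8 at 1.71, and the 6 that fell are of clades A, D and F, led by Serpina12 at -0.79.

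Clade B, the intracellular serpins, comes first. Serpinb8, a cytoplasmic serpin known to inhibit the convertase furin, had levels of 5.46, 5.55 and 5.37 in the not-injected livers and 6.83, 7.11 and 7.58 in the injected livers. The groups lay far apart, and the injected mice also differed more among themselves. The rise was 3.27-fold (log2 change 1.71 ± 0.17; limma adjusted p = 7.17e-04) and remained called with any 1 array left out (adjusted p up to 0.00572). The gene has 1 probe set.

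Serpinb9 protects cells from granzyme B, the protease of cytotoxic lymphocytes. Its levels were 7.74, 7.80 and 7.83 without injection and 8.08, 8.49 and 8.73 with it. Every injected mouse was above every control, T1 by the least. The rise of 0.64 ± 0.15 (1.56-fold; limma adjusted p = 0.0240) was no longer called without N1, N2, N3 or T2 (adjusted p up to 0.0865). Gzmb itself, among the target proteases, stood at a mean of 5.58 and 5.57.

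Serpinb6b and Serpinb6a are related genes; Serpinb6a encodes an inhibitor of cathepsin G, a neutrophil granule protease. Serpinb6b levels were 6.82, 7.08 and 6.68 in not-injected and 7.16, 7.48 and 7.88 in injected livers. Both groups were spread widely here, and the gap between the highest control and the lowest injected mouse was narrow. The change of 0.65 ± 0.18 had a limma adjusted p of 0.0478, just under the threshold. It was not called without N1, N2, N3, T2 or T3 (adjusted p up to 0.140). Serpinb6a levels were 8.47, 8.38 and 8.48 against 8.70, 8.61 and 8.61. This was the smallest of the 4 rises, at 0.20 ± 0.05 (1.15-fold; limma adjusted p = 0.0377), and T3 was the only array whose omission left it called (adjusted p up to 0.121).

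The other 10 clade B genes did not pass, with changes from -0.26 to 0.12. Of these, Serpinb1a, Serpinb11 and Serpinb9b are given in full and were chosen after their values were seen. Serpinb1a, an inhibitor of neutrophil elastase, had levels of 8.48, 8.36 and 8.57 against 8.62, 8.60 and 8.56, which overlap (0.12 ± 0.06; limma adjusted p = 0.234). Its second probe set gave -0.06 ± 0.10 in a fit of every probe set. Serpinb11 had the lowest estimate, with levels of 4.31, 4.45 and 4.73 against 4.33, 4.14 and 4.23 (-0.26 ± 0.11; adjusted p = 0.149). The remaining 8, Serpinb1b, Serpinb2, Serpinb5, Serpinb6c, Serpinb7, Serpinb9b, Serpinb9c and Serpinb9g, had changes between -0.09 and 0.11. Of the 14 clade B genes, 12 had a not-injected mean under 8, the limit used here for a low level. A probe set that names Serpinb9e, Serpinb9f, Serpinb9g and Serpinb9h together was level between groups (0.00 ± 0.05; adjusted p = 0.991). Serpinb9b, a close relative of Serpinb9 that lies next to it in the RefSeq gene order, stood at 6.57, 6.59 and 6.34 against 6.44, 6.38 and 6.56 (-0.04 ± 0.08; adjusted p = 0.803). Serpinb6b is the neighbour of Serpinb9 on its other side, so 2 of the genes that rose are adjacent on chromosome 13. Serpinb6c, which lies next to Serpinb6a there, did not pass.

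**Figure D2:**
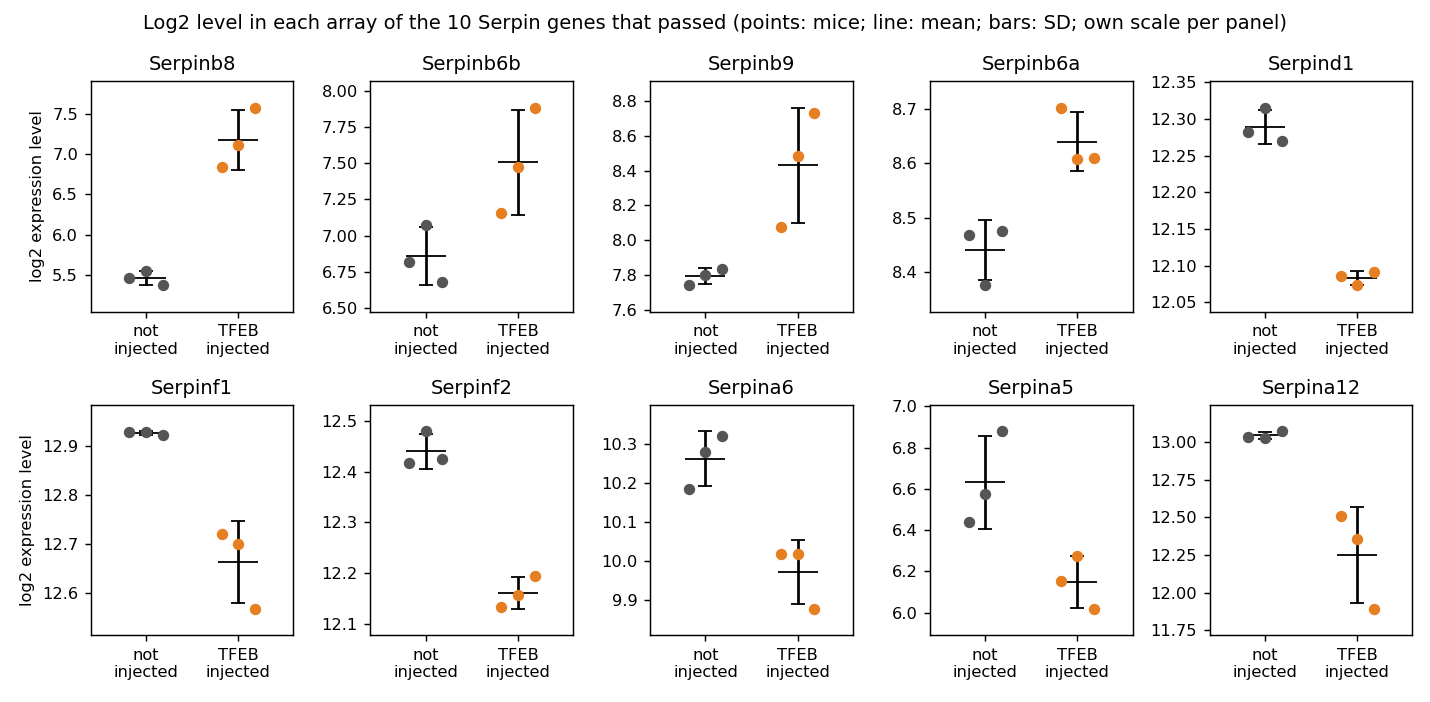
Log2 level in each array (y axis, with its own scale in every panel) of the 10 Serpin genes that passed, for 3 not-injected and 3 TFEB-injected mice (points; line, mean; bars, SD). The groups do not overlap in any panel. The injected mice are spread widely for Serpinb8 (6.83 to 7.58) and Serpina12 (11.89 to 12.51) and narrowly for Serpind1 (12.07 to 12.09).

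Markers of other cell types, among them types that express clade B serpins, were measured in the same arrays. Macrophage and Kupffer cell markers rose in 8 of 10 cases and fell in 0, beside 9.99% and 7.92% of all genes. Their median change was 0.47, and their mean level was 8.89 to 8.96 in not-injected and 9.23 to 9.56 in injected livers. The median shift of these markers was 0.59, 0.52 and 0.32 in T1, T2 and T3. Serpinb8 was shifted by 1.37, 1.65 and 2.11 in the same mice, Serpinb9 by 0.28, 0.69 and 0.94, and Serpinb6b by 0.30, 0.62 and 1.02. Serpinb6a was shifted by 0.26, 0.17 and 0.17. The macrophage marker median and Serpinb6a were thus shifted most in T1, and the other 3 serpins that rose were shifted least there. Among the injected mice, the macrophage markers Cd5l, Vsig4, Csf1r, C1qa, C1qb, C1qc, Adgre1 and Marco were lowest in T3. The other markers of this list, Cd68 and Clec4f, were lowest in T1. Over T1, T2 and T3, Csf1r stood at 11.38, 11.25 and 11.08, Cd68 at 6.92, 7.07 and 6.98, and Clec4f at 9.79, 9.82 and 9.83. Of 7 neutrophil markers, 1 rose (S100a8, 0.25; limma adjusted p = 0.0499) and the mean level was 5.53 to 5.59 against 5.57 to 5.68. Of 5 T and NK cell markers, 1 rose (Gzma, 0.36), with a mean level of 5.66 to 5.78 against 5.76 to 5.84. Of 8 endothelial markers, 2 rose (Stab2, 1.42, and Lyve1, 0.89) and 0 fell, with a median of -0.01 over the 8. B cell, mast cell and platelet markers had 0 calls each in limma, out of 4, 5 and 6; at an unadjusted p under 0.05 these counts were 2, 0 and 2. The part of these cells in the changes of the serpins was not tested, and in whole tissue more cells of a type and more RNA per cell cannot be told apart.

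Among clade A genes, which encode secreted antitrypsin-like proteins, 3 of 8 fell and 0 rose, beside 7.92% and 9.99% of all genes. Of these 8, 2 had a not-injected mean under 8, where 4.45% of all genes fell. The share of falls was 11.9% among all genes from 8 to below 12 and 25.4% among those at 12 or more. Serpina12 encodes vaspin, a secreted inhibitor of a tissue kallikrein that is known as an adipokine. Its levels were 13.03, 13.03 and 13.07 in the not-injected livers, almost the same in each mouse. In the injected livers they were 12.51, 12.36 and 11.89, below every control and lowest in T3. The fall was 1.73-fold (-0.79 ± 0.14; limma adjusted p = 0.00874) and was called with each array left out (adjusted p up to 0.0381). A second Serpina12 probe set, with a mean of 7.39 in not-injected livers, fell by a like amount (-0.75 ± 0.15; adjusted p = 0.0155 in the fit of every probe set), a call lost without N2, N3 or T2 (adjusted p up to 0.0622).

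Serpina6 encodes corticosteroid-binding globulin, the carrier of glucocorticoids in blood and a serpin that no longer inhibits proteases. Its levels were 10.18, 10.28 and 10.32 against 10.02, 10.02 and 9.88. The injected mice lay just below the controls, and the change was -0.29 ± 0.06 (limma adjusted p = 0.0170), not called without N2 or N3 (adjusted p up to 0.0651). Serpina5 encodes the protein C inhibitor. Levels of 6.44, 6.57 and 6.88 in not-injected livers compared with 6.15, 6.27 and 6.02 in injected livers. The change of -0.48 ± 0.12 (limma adjusted p = 0.0284) was called without N1 but not without any other array (adjusted p up to 0.0735). Serpina5 and Serpina12 are next to each other in the RefSeq gene order on chromosome 12. Serpina3a, on the other side of Serpina5, did not pass, and neither did Serpina10, which lies next to Serpina6.

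The antitrypsin genes Serpina1b and Serpina1c were near the top of the array's range and did not pass. Serpina1c levels were 14.96, 14.94 and 14.96 against 14.91, 14.90 and 14.88, while the highest value of any probe set was 15.20. The injected mice were all below the controls, but by little: the change was -0.06 ± 0.04 (limma adjusted p = 0.405), with a 95% interval of -0.15 to 0.04. Serpina1b levels were 14.74, 14.76 and 14.74 against 14.72, 14.69 and 14.69 (-0.05 ± 0.04; adjusted p = 0.514; interval -0.14 to 0.05). Its second probe set gave -0.07 ± 0.04 (adjusted p = 0.346).

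Probe sets shared by the antitrypsin paralogs were dimmer and showed a larger difference. The probe set that names Serpina1d and Serpina1a changed by -0.12 ± 0.05 (limma adjusted p = 0.200), from a mean of 14.50 to 14.39. The one that names Serpina1e, Serpina1c and Serpina1b fell by 0.29 ± 0.07 on the log2 scale (adjusted p = 0.0323), from 13.11 to 12.82. This fit of every probe set that names at least 1 gene, shared ones included, was added after the data were seen, and 15.3% of its 21071 probe sets passed. The call on the probe set of 3 paralogs was lost without T2, T3, N1, N2 or N3 (adjusted p up to 0.111). Among lead probe sets of the 30 genes, this fit did not call Serpinb6b (adjusted p = 0.0502) and made the other 9 calls. All 5 antitrypsin probe sets were lower in each injected mouse than in each control. The paralogs are so alike in sequence that these values cannot be assigned to single genes.

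**Figure D3:**
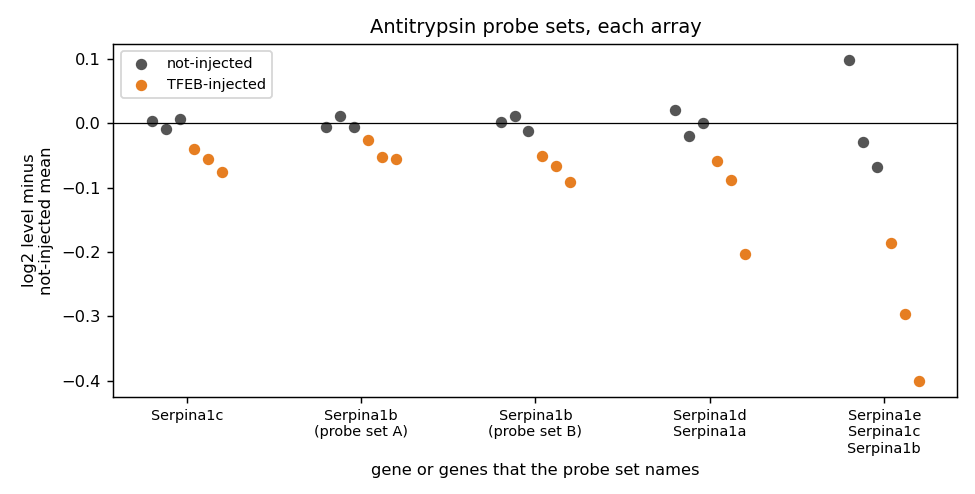
Log2 level minus the not-injected mean (y axis) in each array for the 5 probe sets that name antitrypsin genes (x axis), in 3 not-injected (grey) and 3 TFEB-injected (orange) mice. The injected mice lie below the controls for all 5, by 0.05 to 0.07 for the 3 sets that name 1 gene and by 0.12 and 0.29 for the 2 shared sets.

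The remaining clade A genes did not pass. Serpina10, whose product inhibits factor Xa together with protein Z, had levels of 12.23, 12.26 and 12.28 against 12.32, 12.33 and 12.26, which overlap (0.05 ± 0.05; limma adjusted p = 0.510; 95% interval -0.06 to 0.15). Serpina3n and Serpina3a belong to the antichymotrypsin-like group and are named after their values were seen. Serpina3n, an acute phase gene, stood at 10.43, 10.37 and 10.45 in not-injected livers. The injected mice were at 10.35, 10.97 and 11.41, so that T1 lay with the controls and T3 stood highest. The estimate was 0.49 ± 0.23 (adjusted p = 0.192), and it was 0.77 without T1 (adjusted p = 0.00697) and 0.24 without T3 (adjusted p = 0.341). Serpina3a had levels of 6.34, 6.14 and 6.25 against 5.80, 6.05 and 6.02. Its estimate of -0.29 ± 0.08 missed the threshold (adjusted p = 0.0529).

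Serpins of coagulation and fibrinolysis outside clade A came in both kinds, with and without a call. Serpind1 encodes heparin cofactor II, a thrombin inhibitor, and its levels were 12.28, 12.32 and 12.27 against 12.09, 12.07 and 12.09. Both groups were tight and the fall small, at 1.15-fold (-0.21 ± 0.04; limma adjusted p = 0.0150); it was not called without N1, N2 or T2 (adjusted p up to 0.0709). Serpinf2 encodes antiplasmin, the main plasma inhibitor of plasmin. It stood at 12.42, 12.48 and 12.42 against 12.13, 12.16 and 12.20, with a clear gap. The fall was 1.21-fold (-0.28 ± 0.05; adjusted p = 0.00576) and was called with each array left out (adjusted p up to 0.0334).

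Serpinf1, next to Serpinf2 in the RefSeq gene order on chromosome 11, encodes pigment epithelium-derived factor, a secreted serpin that does not inhibit proteases. Levels of 12.93, 12.93 and 12.92 in not-injected livers compared with 12.72, 12.70 and 12.57 in injected livers. The controls were almost identical and all injected mice lay below them. The fall of 0.26 ± 0.05 on the log2 scale (limma adjusted p = 0.0152) was not called without N1, N2 or N3 (adjusted p up to 0.0594). A second Serpinf1 probe set fell by 0.33 ± 0.06 (adjusted p = 0.0126 in the fit of every probe set), a call lost without N1 or N3 (adjusted p up to 0.0520).

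Serpinc1 and Serping1 did not pass. Serpinc1 encodes antithrombin, the main inhibitor of thrombin, and stood at 14.14, 14.15 and 14.12 against 14.10, 14.08 and 14.10. The change was -0.04 ± 0.04 (limma adjusted p = 0.541), with a 95% interval of -0.14 to 0.05. Serping1, for the inhibitor of the first complement component, had levels of 13.34, 13.37 and 13.35 against 13.25, 13.27 and 13.31 (-0.07 ± 0.04; adjusted p = 0.300; interval -0.18 to 0.03). In both genes the injected mice were below all controls, by little. A change of 1 log2 unit in the measured signal lies outside both intervals. Both genes were among the brightest, at percentiles 99.7 and 98.9 of mean level, and whether differences are compressed there was not tested.

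The other clades hold serpins of other tissues and tasks. Serpinh1 encodes a collagen chaperone of the endoplasmic reticulum, and its levels of 7.99, 8.04 and 8.10 against 8.27, 8.21 and 8.08 overlap. The change was 0.14 ± 0.06 (limma adjusted p = 0.162) and 0.17 ± 0.09 in a second probe set; without T3 it was 0.20 and passed (adjusted p = 0.0485). Serpini1, for neuroserpin, stood at 5.58, 5.60 and 5.65 against 5.55, 5.49 and 5.58 (-0.07 ± 0.05; adjusted p = 0.347), with 0.03 in its second probe set. Serpini2 had a level near 4 in both groups (-0.06 ± 0.08; adjusted p = 0.682).

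By level in the not-injected livers, 9 Serpin genes were high (12 or more), 5 were in the middle (8 to below 12) and 16 were low. Levels of different probe sets are not measures of relative transcript abundance, so the classes only order the signals. In the high class, 4 of 9 genes fell and 0 rose, beside 25.4% falls and 13.9% rises among the 497 genes at that level. Those 4 are Serpina12, Serpinf1, Serpinf2 and Serpind1, and the 5 that did not pass are Serpina1b, Serpina1c, Serpina10, Serpinc1 and Serping1. In the low class, 3 of 16 rose and 1 fell, beside 6.25% and 4.45% of the 7505 genes there. The middle class held 1 rise, Serpinb6a, and 1 fall, Serpina6, among 5 genes, beside 15.9% and 11.9%.

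The injected mice differed in how far these genes were shifted. T3 stood farthest from the not-injected mean for Serpinb8, Serpinb9, Serpinb6b, Serpina12, Serpina6, Serpina5 and Serpinf1, at 2.11, 0.94, 1.02, -1.15, -0.38, -0.61 and -0.36. For Serpinb6a the farthest mouse was T1 (0.26), for Serpinf2 also T1 (-0.31) and for Serpind1 T2 (-0.22). Serpina3n had the same order of mice as Serpinb8 and Serpinb9, at -0.06, 0.55 and 0.99. With 3 mice in a group, such orders are a description.

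**Figure D4:**
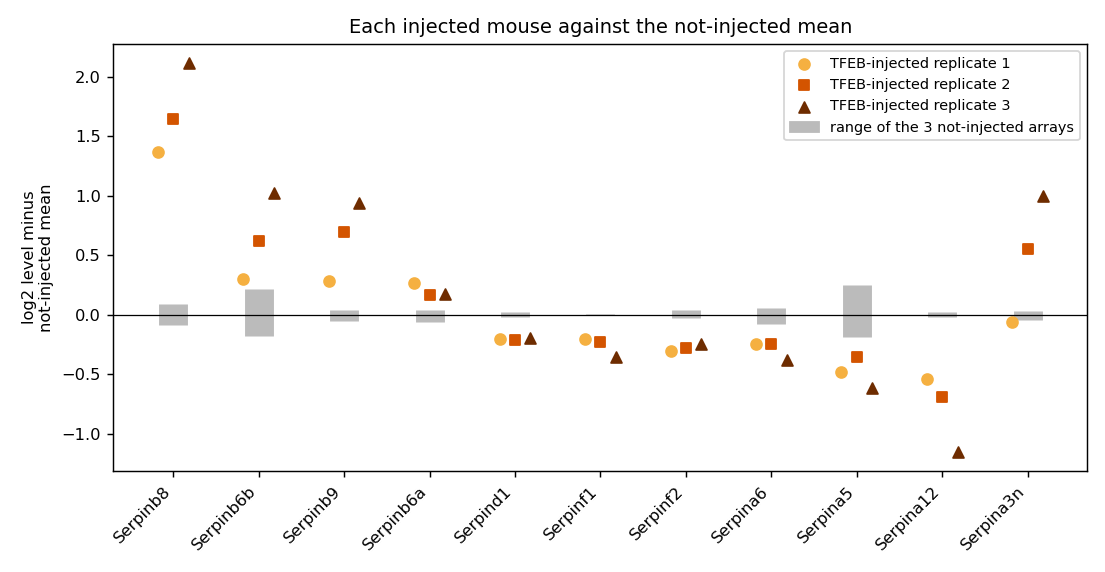
Log2 level of each injected mouse minus the not-injected mean (y axis) for the 10 genes that passed and for Serpina3n (x axis); grey bars give the range of the 3 not-injected arrays. Replicate 3 stands farthest out for Serpinb8 at 2.11 and for Serpina12 at -1.15, while the 3 mice lie close together for Serpind1 and Serpinf2.

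Proteases that serpins inhibit, and the cofactors, receptors and secretion factors around them, were read from a list of 46 genes, of which 45 were measured. Of these, 4 rose and 11 fell, with a median of -0.05; over all genes 9.99% rose and 7.92% fell. Of 15 coagulation and fibrinolysis proteases 4 fell and 0 rose. By the same level classes 5 of these 15 were high and 7 in the middle, where 25.4% and 11.9% of all genes fell. Klkb1, for plasma prekallikrein, a target of the C1 inhibitor, fell from 12.06 to 11.69 (-0.37 ± 0.04; limma adjusted p = 0.00134), and F12, for the contact factor that activates it, changed by -0.23 ± 0.05 (adjusted p = 0.0139; up to 0.0625 without N1, N2 or T2). The call on Klkb1 was kept with each array left out. The other falls in this group were F7 (-0.23 ± 0.05) and Proc (-0.19 ± 0.05). The call on F7 was lost without N2, N3 or T2, and that on Proc without any array but T1 (limma adjusted p up to 0.0603 and 0.102). The antithrombin target F2, prothrombin, stood at means of 13.78 and 13.68, and plasminogen, Plg, at 13.95 and 13.90, and neither passed. Of 4 complement proteases 2 fell and 0 rose. All 4 were in the middle class, where 11.9% of all genes fell. The falls were C1ra (-0.24 ± 0.05) and Masp1 (-0.19 ± 0.05). Both calls were lost without N1, N2, N3 or T2 (limma adjusted p up to 0.0650 and 0.131), that of Masp1 also without T1.

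Lysosomal cysteine proteases, which several clade B serpins can inhibit when they leak into the cytosol, went the other way. Of 4, 3 rose and 0 fell, beside 9.99% and 7.92% of all genes, and these calls were kept with each array left out. Ctsb, for cathepsin B, rose from 11.95 to 12.74 (0.79 ± 0.08; limma adjusted p = 8.99e-04), and Ctss rose by 0.44 ± 0.05. Among 11 leukocyte and digestive proteases, Cela1, a pancreatic-type elastase, fell by 0.85 ± 0.05 and the trypsinogen Prss2 by 0.38 ± 0.07. These are also the 2 that fell among 4 pancreatic acinar markers, whose part was not tested. Gzma rose (0.36 ± 0.08; adjusted p = 0.0235), a call lost without N2, N3 or T2 (adjusted p up to 0.0700). The neutrophil targets Elane, Ctsg and Prtn3 did not pass.

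Of 4 cofactors and receptors 3 fell and 0 rose, beside 7.92% and 9.99% of all genes. By level class 2 of the 4 were high and 1 in the middle, where 25.4% and 11.9% of all genes fell. Lrp1, the hepatic receptor that clears serpin and protease complexes, changed by -0.24 ± 0.05 (limma adjusted p = 0.0137), and Proz, the protein Z cofactor of the Serpina10 product, by -0.21 ± 0.05 (adjusted p = 0.0188). Both calls were lost without N2 or T2 (adjusted p up to 0.0523 and 0.0860), that of Lrp1 also without N3 and that of Proz also without N1. The remaining fall, Vtn (-0.17 ± 0.05, limma adjusted p = 0.0448), was not called with any 1 array left out (adjusted p up to 0.140). Of 7 genes for the export and quality control of secreted proteins 0 passed in limma's test with all arrays, and 2 had an unadjusted p under 0.05. These 2, Man1b1 (0.25 ± 0.07; adjusted p = 0.0505) and Lman1 (-0.29 ± 0.08; adjusted p = 0.0533), named after their values were seen, both passed without T1, and Hspa5 (0.09 ± 0.19; adjusted p = 0.799 with all arrays) passed without T3. The count of 15 over the whole list was 9, 6 and 8 without N1, N2 and N3 and 6 without T2.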

How the data were processed

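Per the submitters' processing notes, the authors made the deposited log2 values by RMA (affy), that is, background correction, quantile normalization and a summary of the probes in each probe set; the sources used here give no version. Values ran from 3.08 to 15.20. Quantile normalization hides overall shifts in RNA, and fold changes of dim probe sets are compressed.

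Of 22690 probe sets, the 20380 that name 1 gene and are not controls were reduced to 12393 genes by the highest mean over the 6 arrays. The labels gave groups and replicate numbers and describe biological replicates. Changes were fitted with limma 3.58.1 (lmFit, eBayes) in R 4.3.3, adjusted by Benjamini-Hochberg across the 12393 genes, with 0.05 as the limit; the script was tested on simulated data. Intervals are limma's at 95%. All 30 Serpin genes were matched to RefSeq by gene ID. The members and lists were chosen with earlier results of these data known.

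Array values were printed for every Serpin gene past the threshold, for those with a not-injected mean of 12 or more, and for the gene with the smallest p of each clade without a call; other genes so printed are marked. Of the partner list, up to 2 called genes in each direction were named per role. Vtn, F7 and Proc were named besides, to give the arrays on which their calls depended. Gzmb, F2, Plg, Elane, Ctsg and Prtn3, which did not pass, and the markers named were chosen after their values were seen. Marker lists not counted in full in the text had these rises and falls: stellate 1 and 2 of 7, pancreatic acinar 0 and 2 of 4, cholangiocyte 0 and 1 of 4, adipocyte 1 and 0 of 3. Alternatives were other probe set rules, scalings, filters, priors, array weights, thresholds, a replicate block and leaving out each array. Python 3.11.15 and matplotlib 3.10.9 made the figures.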

Additional observations from a re-analysis of the deposited data

How the results depend on the processing

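The 10 Serpin calls were the same genes when probe sets of a gene were averaged, with the probe set highest in not-injected livers, without _x_at and _s_at probe sets, with median centring, with cyclic loess and with every probe set that names 1 gene tested; with shared probe sets also in the fit, added after seeing the data, Serpinb6b was not called (adjusted p = 0.0502). An intensity trend with a robust prior gave 10 calls, 9 of them shared. Rises numbered 2 and falls 5 without the dimmer genes (mean level under the median of genes), which takes Serpina5, Serpinb6b and Serpinb8 out of the test. The labels state no pairing of same-numbered mice. The deviations of same-numbered mice from their group means had correlations of 0.01, -0.13 and -0.11. With 3 mice in a group these values cannot show whether there was pairing. A replicate block gave 2 rises, 3 falls and 9 partner genes called, and 1533 of all genes. At an adjusted p of 0.01 there were 1 rise, 2 falls, 6 partner genes and 1053 genes in all. Array weights gave 8 rises, 12 falls, 26 partner genes and 5854 genes in all; the estimate did not converge and gave TFEB-injected replicate 2 a weight of 16.3. Weights estimated gene by gene, added after seeing the data, gave 6, 7, 19 and 3758. With each array left out, rises ranged from 1 to 4, falls from 2 to 5, partner genes called from 6 to 15, all genes called from 1229 to 2409, and the Serpin median from -0.076 to -0.038; it was -0.028 under cyclic loess, against -0.053. Over all settings 0 called genes changed sign. Genes that were not called did so in 7 cases: Serpinb5 (0.013 under cyclic loess; -0.083 to 0.032 with an array left out, above 0 without not-injected replicate 2), Serpinb6c (0.0017 under cyclic loess; -0.067 to 0.014, above 0 without not-injected replicate 3), Serpinb9b (-0.117 to 0.0067, above 0 also at 0.0019 without TFEB-injected replicate 2) and Serpini2 (-0.115 to 0.036, above 0 without TFEB-injected replicate 2). The cause of these differences was not tested.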
